A study of Rattus norvegicus and Ovis aries with 113 samples.

Results

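The 9 genes described here encode both cannabinoid receptors and the main enzymes that make and break down their lipid ligands: CNR1, CNR2, NAPEPLD, FAAH, DAGLA, DAGLB, MGLL, ABHD6 and ABHD12. They were chosen by name, matching upper-cased symbols in a sheep and a rat table of read counts. Each of the 9 was found once among the 31304 genes of the sheep table and once among the 38675 genes of the rat table.

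The study set brain beside a reproductive sample in untreated mammals, and its title asks which genes link the nervous and reproductive systems. The sheep (Ovis aries) were 5 post-pubertal males named 687, 688, 690, 694 and 699. Each gave sperm and 10 pieces of brain, taken from the same hemisphere: the frontal (FC), prefrontal (PC), motor (MC), posterior parietal (PPC), visual (VC) and entorhinal (EC) cortex, the hippocampus (HC), the basal ganglia (BG), the cerebellum (CB) and the pons. The rats (Rattus norvegicus, Sprague Dawley, an outbred laboratory stock) were 15 post-pubertal males, which gave whole brain and seminal fluid labelled as sperm, and 14 females, which gave whole brain and ovaries. None of the animals was given an agent, the labels name no altered allele, and the cycle stage of the females is not given in the sources used here. The labels give 1 library per animal and tissue, 55 from sheep and 58 from rats, and the number in a rat's label was taken as the animal.

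Endocannabinoids are made on demand from membrane phospholipids. At synapses the diacylglycerol lipases (DAGLA, DAGLB) make 2-arachidonoylglycerol (2-AG) on the postsynaptic side, and 2-AG acts backwards on presynaptic CB1 receptors (encoded by CNR1), which lower transmitter release, before monoacylglycerol lipase (MGLL) destroys it. The other main ligand, anandamide, is released by NAPE-PLD (NAPEPLD) and hydrolysed by fatty acid amide hydrolase (FAAH), while the CB2 receptor (CNR2) is best known from immune cells.

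Levels are CPM, counts per 1000000 of a library total scaled by trimmed mean of M values (TMM) factors, on one scale per species. They compare a gene between samples and do not rank one gene against another, because counts grow with transcript length. Library totals ran from 46.7 to 72.4 M (1000000) counts in sheep brain, 13.7 to 65.1 M in sheep sperm, 38.2 to 119 M in rat brain, 13.7 to 65.1 M in rat sperm and 50.5 to 60.3 M in rat ovary. In sheep sperm, 4 placeholder entries took 22.4% to 85.2% of the counts and TMM factors fell to between 0.124 and 0.343. Rat brain libraries 4 (male) and 1 (female) had 83.1% and 86.9% of counts in ribosomal RNA entries, and rat sperm libraries 7, 16 and 17 held only 532, 354 and 327 genes with 1 to 4 counts, against 3061 or more in the other 12. Sperm markers were present in both kinds of sperm library: a list of 8 late spermatid and sperm genes (such as PRM1), as a mean of log2(CPM + 1), ran from 3.22 to 7.71 in sheep sperm and 3.14 to 10.60 in rat sperm, against at most 1.24 in sheep brain and 1.06 in rat brain. Sheep sperm also carried neutrophil S100A8 (18268 CPM ± 17482, SD, n = 5) and squamous keratin KRT13 (20743 CPM ± 24487, SD, n = 5). In such bulk samples, fewer cells of a type and less RNA per cell cannot be told apart.

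Rat positions and upstream sequences come from RefSeq on GRCr8. The RefSeq promoter table held 7 of the 9 genes (not Cnr1 or Dagla). Shown here are the bases just upstream of the annotated genes for Abhd12, the member that was higher in rat sperm than in brain, Faah, which was lower in both rat reproductive samples, and Mgll and Daglb, which did not pass the test in rat sperm. Capitals mark matches on either strand to TATAAA (the TATA box), CCAAT (the CAAT box motif), GGGCGG (a GC box), CACGTG (an E-box) or TGACGTCA (a cyclic AMP response element).
Abhd12 (chr3:160179960-160180179, minus strand, 220 bases): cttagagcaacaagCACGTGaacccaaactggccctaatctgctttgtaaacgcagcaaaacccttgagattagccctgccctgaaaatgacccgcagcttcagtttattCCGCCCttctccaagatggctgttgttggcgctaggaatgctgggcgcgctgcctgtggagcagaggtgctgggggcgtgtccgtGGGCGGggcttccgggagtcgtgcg
Faah (chr5:134735397-134735646, minus strand, 250 bases): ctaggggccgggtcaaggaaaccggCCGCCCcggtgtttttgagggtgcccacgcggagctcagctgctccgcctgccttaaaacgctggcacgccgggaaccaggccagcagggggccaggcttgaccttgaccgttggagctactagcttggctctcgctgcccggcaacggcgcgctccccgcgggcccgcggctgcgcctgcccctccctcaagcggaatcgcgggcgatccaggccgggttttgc
Mgll (chr4:122749186-122749435, plus strand, 250 bases): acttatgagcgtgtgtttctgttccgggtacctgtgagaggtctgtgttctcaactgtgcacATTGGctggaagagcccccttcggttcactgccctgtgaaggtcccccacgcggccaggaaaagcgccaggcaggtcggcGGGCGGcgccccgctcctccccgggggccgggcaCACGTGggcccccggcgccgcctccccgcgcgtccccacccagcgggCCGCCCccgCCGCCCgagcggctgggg
Daglb (chr12:16215778-16216008, minus strand, 231 bases): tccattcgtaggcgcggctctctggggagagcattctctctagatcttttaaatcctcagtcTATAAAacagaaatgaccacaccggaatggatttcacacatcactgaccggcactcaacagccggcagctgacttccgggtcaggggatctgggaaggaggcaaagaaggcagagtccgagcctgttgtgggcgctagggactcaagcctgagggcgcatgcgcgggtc
Over all 33469 windows of 250 upstream bases, 30.5% held GGGCGG, 34.0% CCAAT, 12.9% TATAAA, 5.59% CACGTG and 1.59% TGACGTCA. Of the 4 stretches, those of Abhd12, Faah and Mgll held GGGCGG, those of Abhd12 and Mgll also CACGTG. Among these printed stretches that of Mgll alone held CCAAT and that of Daglb alone TATAAA, but the whole window of Abhd12, which runs into the annotated gene, also held CCAAT. No matches overlapped. The windows of Faah and Mgll each held 26 CG pairs and those of Abhd12 and Daglb 17 and 15, against a median of 5 over all windows. A match is a description of letters and not a bound site.

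The first question was how the genes are spread over the sheep brain. With edgeR's quasi-likelihood test on the 50 brain libraries, each region was compared with the average of the remaining 9, and a gene counted as called when its p, adjusted over all 21126 genes tested, was below 0.05. CNR2 did not pass the low-count filter there, so 8 members were tested. In the basal ganglia 6 of 8 were called (27.5% of all genes were), in the cerebellum 5 (60.9%), in the pons 6 (48.1%), in the posterior parietal cortex 2 (10.2%), in the visual cortex 2 (5.68%) and in the frontal cortex 1 (8.03%). None was called in the entorhinal (3.22%), hippocampal (10.9%), motor (3.54%) or prefrontal (6.27%) samples. There edgeR gave 0, 1, 2 and 2 members at an unadjusted p below 0.05, and DESeq2 called 0 in each. Most genes of any kind differed in the cerebellum, so the share of members called there, 5 of 8, lies near the background. The median log2 difference of the 8 members was -0.35 in the basal ganglia, 0.14 in the cerebellum and -0.79 in the pons, against -0.02, -0.02 and -0.01 over all genes.

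**Figure D1:**
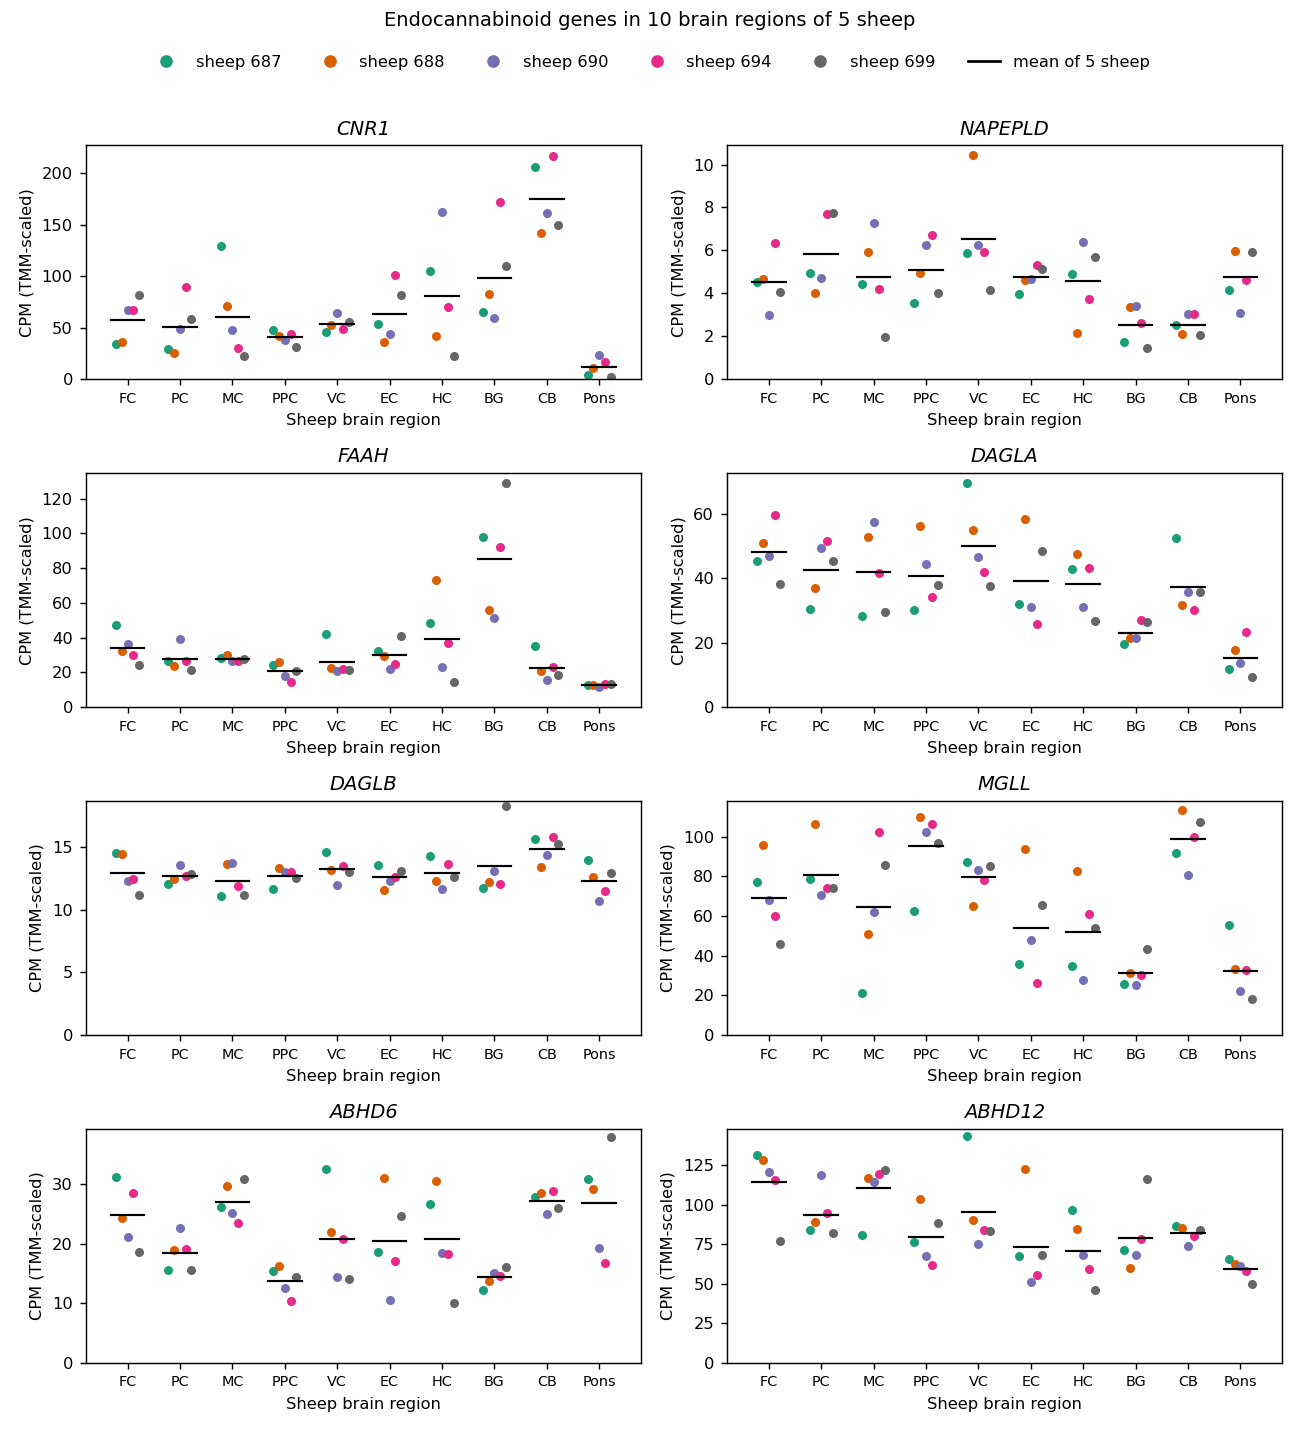
TMM-scaled CPM (linear axis from 0) of 8 endocannabinoid genes in the 10 brain regions of 5 sheep; each point is 1 library, coloured by sheep, and the line is the mean of 5. CNR1 stands highest in the cerebellum (mean 175 CPM) and lowest in the pons (11.8 CPM), FAAH highest in the basal ganglia (85.2 CPM), and DAGLB is nearly flat.

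CNR1, the receptor gene, had the widest regional span, 14.8-fold between the cerebellum and the pons. In the cerebellum it stood at 206, 141, 162, 216 and 150 CPM in sheep 687, 688, 690, 694 and 699. All 5 lay above the mean of every other region, and only 2 libraries elsewhere reached that range: 172 CPM in the basal ganglia of sheep 694 and 162 CPM in the hippocampus of sheep 690. CNR1 was 1.78 ± 0.28 (SE) log2 units higher in the cerebellum than in the other regions (edgeR, adjusted p = 7.10e-07). In the pons it stood at 4.45, 11.5, 23.7, 16.9 and 2.58 CPM, and the difference was -2.54 ± 0.42 (SE, edgeR, adjusted p = 2.29e-06). The pontine values lay below all 5 libraries of the posterior parietal cortex, the next lowest region, but overlapped 2 low libraries, of the hippocampus (22.9 CPM) and the motor cortex (22.6 CPM), both of sheep 699.

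CNR1 in the basal ganglia was 65.4, 83.1, 59.6, 172 and 110 CPM in the same order. The difference of 0.85 ± 0.31 (SE) passed the test (edgeR, adjusted p = 0.0330), but it did not without sheep 688 (0.84, adjusted p = 0.0867), 694 (0.63, adjusted p = 0.235) or 699 (0.75, adjusted p = 0.0805). The other regional means fell between 40.8 CPM in the posterior parietal cortex and 80.6 CPM in the hippocampus, and each neighbour in that order overlapped the next. In the hippocampus the sheep ranged widely, from 22.9 to 162 CPM. Cell-type markers moved with these regions. A cerebellar list (PCP2, CALB1, GABRA6, NEUROD1) summed to between 715 and 976 CPM in the cerebellum and at most 108 CPM in other regions. A striatal list (DRD1, DRD2, PPP1R1B, ADORA2A) summed to between 924 and 2542 CPM in the basal ganglia and at most 59.3 CPM elsewhere. In the pons, 5 oligodendrocyte genes summed to between 15259 and 75618 CPM, against 1103 to 27606 CPM elsewhere, and 5 neuron genes to between 276 and 1869 CPM, against 959 to 3797 CPM elsewhere. Pontine astrocyte genes summed to between 13026 and 17840 CPM, against at most 7697 CPM elsewhere, and a list for GABA and cholecystokinin neurons, a main site of CB1, to between 1.25 and 82.6 CPM, against 96.2 CPM or more elsewhere. Their part in the results was not tested.

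CNR2, the gene of the CB2 receptor, was near the limit of detection in sheep brain. The 50 brain libraries held 69 CNR2 counts in all, 33 of them had at least 1, and no library had more than 6. The pooled level was 0.0242 CPM of plain totals, with an exact 95% binomial interval of 0.0188 to 0.0306 CPM that covers counting error only. Regional means lay between 0.0090 and 0.030 CPM and all neighbours overlapped, so no regional order was detectable at this depth. Markers of microglia were present in the same tissue: a list of 6 genes (AIF1, CX3CR1, P2RY12, CSF1R, TMEM119, C1QA) averaged a sum of 237 CPM in the basal ganglia, 190 CPM in the pons and 40.6 CPM in the cerebellum.

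NAPEPLD, which encodes the phospholipase that releases anandamide, was low in 2 regions where CNR1 was high. Its levels were 1.76, 3.37, 3.42, 2.63 and 1.48 CPM in the basal ganglia and 2.51, 2.09, 3.06, 3.05 and 2.05 CPM in the cerebellum, in sheep 687, 688, 690, 694 and 699. The other 8 regional means were 4.51 to 6.54 CPM, though single libraries of the motor cortex (1.98 CPM), hippocampus (2.14 CPM), frontal cortex (2.99 CPM) and pons (3.08 CPM) were as low. The differences were -0.89 ± 0.23 (SE) log2 in the basal ganglia (edgeR, adjusted p = 0.00241) and -0.88 ± 0.23 in the cerebellum (edgeR, adjusted p = 0.000972). In the visual cortex NAPEPLD stood at 5.86, 10.4, 6.27, 5.94 and 4.18 CPM, 0.63 ± 0.20 (SE) higher (edgeR, adjusted p = 0.0468). That call was lost without any 1 of sheep 687, 688, 690 and 694 (edgeR, adjusted p = 0.221, 0.405, 0.0802 and 0.0645), and without sheep 688 the difference was 0.39.

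FAAH, the hydrolase of anandamide, was highest in the basal ganglia, where NAPEPLD was lowest. It reached 98.1, 55.9, 51.4, 91.9 and 129 CPM there, 1.74 ± 0.17 (SE) log2 above the other regions (edgeR, adjusted p = 5.68e-11). Only 1 of the other 45 libraries, the hippocampus of sheep 688 (73.2 CPM), reached that range. In the pons FAAH was 12.7, 12.9, 11.6, 13.4 and 13.5 CPM, below every library of every other region, and the difference was -1.30 ± 0.23 (SE, edgeR, adjusted p = 8.07e-06). The lowest values elsewhere were 14.4 CPM in the posterior parietal cortex of sheep 694 and 14.6 CPM in the hippocampus of sheep 699. In the hippocampus FAAH ranged from 14.6 to 73.2 CPM over the sheep. The difference of 0.49 there missed the threshold, and without sheep 699 it was 0.71 (edgeR, adjusted p = 0.0122).

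**Figure D2:**
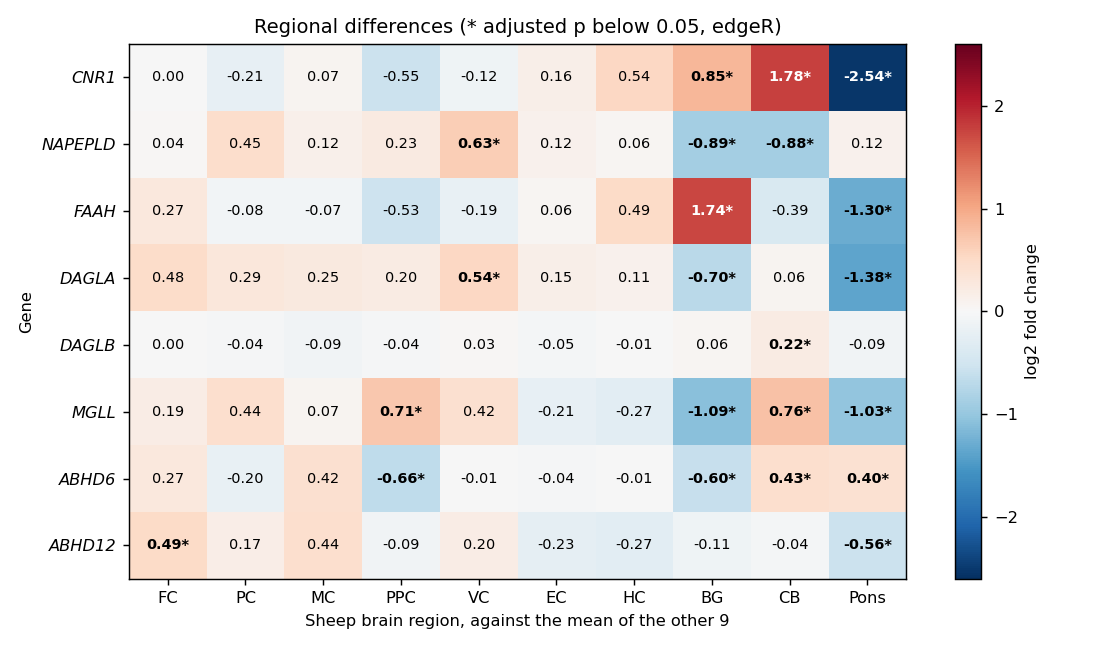
Log2 fold change of 8 genes (rows) in each sheep brain region (columns) against the mean of the other 9; colour and number give the same value, and an asterisk marks an adjusted p below 0.05 by edgeR. The basal ganglia, cerebellum and pons hold 17 of the 22 called differences, from -2.54 (CNR1, pons) to 1.78 (CNR1, cerebellum). These regions also had the largest shares of all genes called (27.5%, 60.9% and 48.1%, against at most 10.9% elsewhere), so the concentration is not particular to these genes.

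DAGLA and DAGLB make 2-AG from diacylglycerol. DAGLA, the main neuronal synthase, was 11.7, 17.6, 13.6, 23.2 and 9.32 CPM in the pons (-1.38 ± 0.19 (SE) log2; edgeR, adjusted p = 1.12e-07). In the basal ganglia DAGLA was 19.6, 21.3, 21.3, 27.1 and 26.3 CPM (-0.70 ± 0.18; edgeR, adjusted p = 0.00296). Those 2 regions overlapped only the entorhinal cortex of sheep 694 (25.8 CPM) and the hippocampus of sheep 699 (26.6 CPM). DAGLA was highest in the visual cortex, at 69.5, 54.8, 46.6, 41.8 and 37.4 CPM (0.54 ± 0.16; edgeR, adjusted p = 0.0376). Without sheep 687 that difference was 0.36 (edgeR, adjusted p = 0.392), and without sheep 688 or 690 the adjusted p was 0.0881 or 0.122. In the frontal cortex DAGLA averaged 48.2 CPM, and its difference of 0.48 (edgeR, adjusted p = 0.0607) was called with the sheep as a block (edgeR, adjusted p = 0.0498).

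DAGLB, the second diacylglycerol lipase, had the smallest regional span of the 8 tested members. Its 10 regional means ran from 12.3 to 14.9 CPM, a 1.21-fold span, and the median coefficient of variation between sheep within a region was 7.65%. Only the cerebellum was called, at 15.6, 13.4, 14.4, 15.9 and 15.3 CPM (0.22 ± 0.07 (SE) log2; edgeR, adjusted p = 0.00839). That small difference was 0.15 with DESeq2-type size factors in edgeR (adjusted p = 0.0697) and 0.19 without sheep 694 (edgeR, adjusted p = 0.0727).

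MGLL encodes the lipase that removes most 2-AG in brain. In the cerebellum it was 91.5, 113, 80.7, 99.8 and 108 CPM (0.76 ± 0.21 (SE) log2; edgeR, adjusted p = 0.00184), and in the posterior parietal cortex 62.7, 110, 102, 106 and 96.7 CPM (0.71 ± 0.21; edgeR, adjusted p = 0.0239). It was lowest in the basal ganglia, at 25.6, 31.0, 25.4, 30.1 and 43.2 CPM (-1.09 ± 0.25; edgeR, adjusted p = 0.000652), and in the pons, at 55.3, 33.2, 22.3, 32.5 and 18.1 CPM (-1.03 ± 0.25; edgeR, adjusted p = 0.000601). The cerebellar libraries lay above all basal ganglia and pontine ones. The parietal call was lost without sheep 690, 694 or 699 (edgeR, adjusted p = 0.143, 0.118 and 0.0551). In the motor cortex the sheep ranged from 21.0 to 102 CPM.

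ABHD6 and ABHD12 encode further serine hydrolases that can act on 2-AG, ABHD12 being also a lipase of lysophosphatidylserine. ABHD6 was lowest in the posterior parietal cortex, at 15.4, 16.2, 12.6, 10.4 and 14.4 CPM (-0.66 ± 0.18 (SE) log2; edgeR, adjusted p = 0.0159), and in the basal ganglia, at 12.2, 13.7, 15.1, 14.6 and 16.0 CPM (-0.60 ± 0.18; edgeR, adjusted p = 0.0112). The parietal call was lost without sheep 694 (edgeR, adjusted p = 0.120) and that in the basal ganglia without sheep 687 (edgeR, adjusted p = 0.0824) or 688 (edgeR, adjusted p = 0.0598). In the cerebellum ABHD6 was 25.0 to 28.9 CPM (0.43 ± 0.17; edgeR, adjusted p = 0.0251), and that call was lost without sheep 690 (adjusted p = 0.0535) or 694 (adjusted p = 0.108) and with DESeq2-type size factors (adjusted p = 0.0578). In the pons it spread from 16.7 to 37.9 CPM (0.40 ± 0.17; edgeR, adjusted p = 0.0443). Without sheep 699, which had the highest value, the pontine difference was 0.21 (edgeR, adjusted p = 0.337), and it also missed the threshold without sheep 687 (adjusted p = 0.104) or 688 (adjusted p = 0.0732).

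ABHD12 was highest in the frontal cortex, at 131, 128, 121, 115 and 77.0 CPM in sheep 687, 688, 690, 694 and 699 (0.49 ± 0.14 (SE) log2; edgeR, adjusted p = 0.0245). It was lowest in the pons, at 65.3, 62.2, 61.4, 58.3 and 49.9 CPM (-0.56 ± 0.16; edgeR, adjusted p = 0.00316). The frontal call was lost without sheep 687, 690 or 694 (edgeR, adjusted p = 0.0883, 0.146 and 0.126). In the motor cortex 4 sheep stood at 114 to 122 CPM and sheep 687 at 80.5 CPM. Without sheep 687 the motor difference was 0.57 and passed the test (edgeR, adjusted p = 0.0262).

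The balance within a library does not depend on scaling between libraries. The log2 ratio of MGLL to FAAH counts was lowest in the basal ganglia (-1.40 ± 0.45) and highest in the posterior parietal cortex (2.21 ± 0.57), each ± SD over 5 sheep. The log2 ratio of DAGLA to DAGLB counts was 0.22 ± 0.59 in the pons and 0.78 ± 0.24 in the basal ganglia, against 1.88 ± 0.30 in the visual cortex. These regional ratios are given as descriptions, since the same genes were tested above.

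Across the 50 sheep brain libraries, and among 13087 genes with a mean of at least 1 CPM, the genes with the most similar log-scale pattern were listed for each member. For CNR1 they were NTRK3 (Pearson r = 0.934), FRRS1L (0.887) and SPRY3 (0.885). For FAAH they were SMPD3 (r = 0.933), PRR7 (0.912) and TMEM158 (0.884), and for DAGLA BSN (r = 0.923), LRRC4 (0.914) and GRIN2A (0.912). MGLL lay closest to CACNG7 (r = 0.905), ABHD12 to GPS1 (0.928), NAPEPLD to SPAG9 (0.866), ABHD6 to OTUD7A (0.865) and DAGLB to TAOK2 (0.733). Among the members themselves the strongest pairs were DAGLA with ABHD12 (r = 0.651) and DAGLA with MGLL (r = 0.647), and the most opposed were FAAH and NAPEPLD (r = -0.444). The libraries share sheep and regional make-up, so these values are descriptions.

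Sheep sperm was then compared with the average over the 10 regions, using all 55 sheep libraries. A single spread per gene was fitted to brain and sperm together, although sperm libraries vary far more. The SE and p-values of this comparison thus rest largely on the brain libraries and can understate the spread of sperm. Here and in the rat tissue comparisons a call needed both an adjusted p below 0.05 and a log2 difference of 1 or more in either direction (the fold minimum). Of the 9 members 7 were called, against 75.0% of all genes tested: 6 lower (42.4% of all genes) and 1 higher (32.6%). The 1 higher, CNR2, passed the low-count filter only with sperm included. The median of all 22195 genes lay at -0.51 log2, and with DESeq2-type size factors it lay 0.41 higher, at -0.10, and by DESeq2 at 0.65. The members' median was -1.79.

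CNR2 was the member that was higher in sheep sperm. It stood at 27.7, 26.6, 7.47, 57.6 and 19.6 CPM in sheep 687, 688, 690, 694 and 699, from 223, 369, 25, 584 and 185 counts, while no brain library exceeded 0.0904 CPM. On plain totals, without TMM scaling, it was lower, from 1.82 to 19.8 CPM in sperm, against at most 0.102 CPM in brain. The mean was 27.8 CPM ± 18.5 (SD, n = 5), higher than brain in 5 of 5 sheep. The fitted difference was 10.37 ± 0.31 (SE) log2 (edgeR, adjusted p = 6.46e-34), or 10.95 by DESeq2. CNR2 passed the low-count filter in this fit but not among the brain libraries alone. It was thus tested only because of the sperm libraries, and this p-value is no separate support for the difference. Leukocyte markers were present in the same libraries. A list of 5 neutrophil genes (S100A8, S100A9, CSF3R, CXCR2, MMP9) summed to between 12785 and 141299 CPM in sperm, against at most 6.05 CPM in brain, and as a mean of log2(CPM + 1) it was 7.65, 10.03, 9.06, 10.21 and 7.62 in the 5 sheep. A list of 6 lymphocyte genes summed to 45.1 CPM on average in sperm, against at most 9.76 CPM in brain, with the medians of CD3E and CD3D at 0. The microglial list averaged a sum of 42.7 CPM in sperm, with the medians of CX3CR1 and C1QA at 0. The part of these markers in the CNR2 result was not tested.

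**Figure D3:**
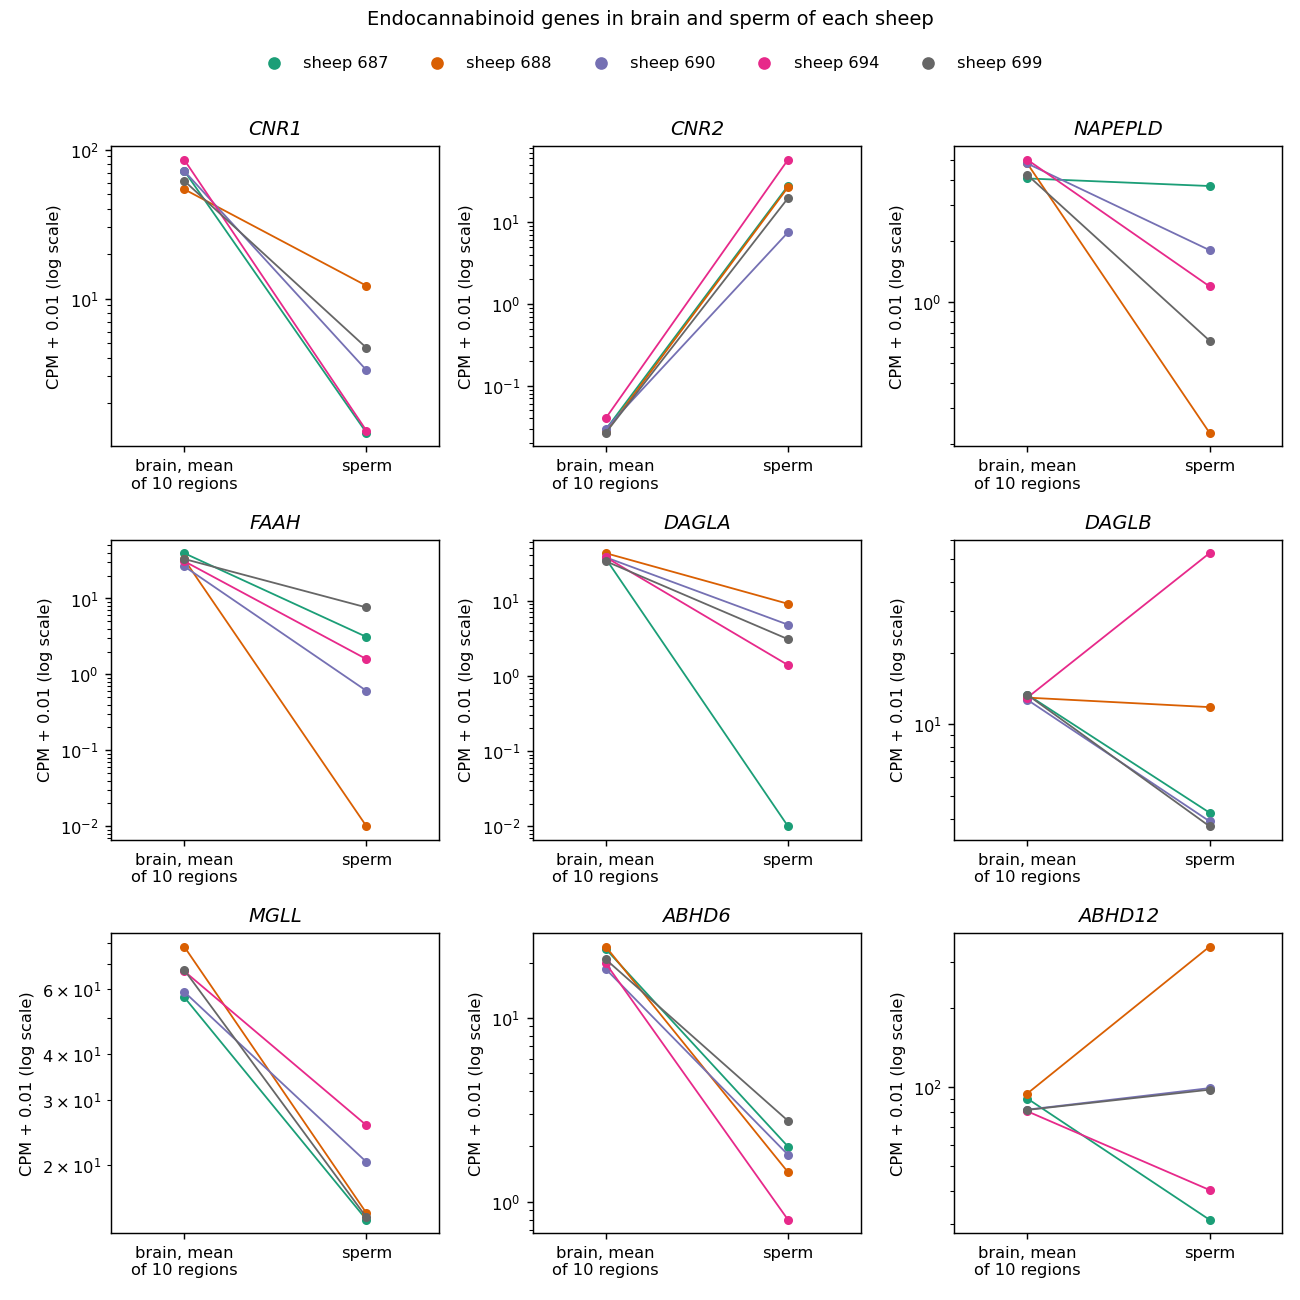
Level of the 9 genes (CPM + 0.01, log axis) in the brain (mean of 10 regions) and the sperm of each sheep, joined by a line per sheep. CNR2 rises in all 5 sheep, to between 7.47 and 57.6 CPM in sperm; CNR1, FAAH, NAPEPLD, DAGLA, MGLL and ABHD6 are lower in all 5, and DAGLB and ABHD12 go both ways.

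CNR1 in sheep sperm was 1.24, 12.2, 3.29, 1.28 and 4.65 CPM (-3.61 ± 0.50 (SE) log2; edgeR, adjusted p = 5.73e-09), below every library outside the pons. Without sheep 688, the highest, the difference was -4.56. FAAH was 3.11, 0, 0.598, 1.58 and 7.61 CPM (-3.44 ± 0.42; edgeR, adjusted p = 1.79e-10), below every brain library, and without sheep 699 the difference was -4.47. NAPEPLD was 3.73, 0.216, 1.79, 1.18 and 0.634 CPM (-1.62 ± 0.34; edgeR, adjusted p = 2.56e-05). It overlapped low brain libraries, and without sheep 687 the difference was -2.45.

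DAGLA in sheep sperm was 0, 9.07, 4.78, 1.38 and 3.06 CPM (-3.27 ± 0.36 (SE) log2; edgeR, adjusted p = 1.47e-11), below all 50 brain libraries, and without sheep 688 the difference was -4.06. MGLL was 14.2, 14.8, 20.3, 25.6 and 14.4 CPM (-1.79 ± 0.27; edgeR, adjusted p = 3.76e-08). Its values of 20.3 and 25.6 CPM overlapped low brain libraries, which went down to 18.1 CPM in the pons and 21.0 CPM in the motor cortex. ABHD6 was 1.99, 1.44, 1.79, 0.789 and 2.75 CPM (-3.59 ± 0.27; edgeR, adjusted p = 3.09e-17), below every brain library. The hydrolases MGLL and ABHD6 were lower in each of the 5 sheep.

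DAGLB and ABHD12 were not called in sheep sperm. DAGLB was 4.22, 11.8, 3.88, 52.8 and 3.70 CPM, a difference of 0.25 ± 0.24 (SE, edgeR, adjusted p = 0.334). Sheep 694 alone lay above brain, and without it DAGLB was lower in sperm by -1.10 (edgeR, adjusted p = 1.18e-06). ABHD12 was 31.1, 343, 98.9, 40.4 and 97.5 CPM, a difference of 0.54 ± 0.23 (edgeR, adjusted p = 0.0265) that was under the fold minimum. It was higher in sperm in 3 of 5 sheep, and without sheep 688 the difference was -0.29. Sheep 688 had the lowest spermatid list, 3.22, and the highest squamous list, 9.96, as means of log2(CPM + 1), and its part in these values was not tested.

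Rat sperm was compared with the brains of the males. Of the 9 members 5 were called, against 59.4% of all 20564 genes: 4 lower (33.8% of all genes) and 1 higher (25.6%). The members' median difference was -0.09 against -0.17 over all genes. ABHD12 was the member that was higher. Rat Abhd12 lies on chromosome 3 from 160119724 to 160179959 (GRCr8) and overlaps the annotated LOC134486181 and LOC120101747, so reads at the overlaps are uncertain because the strand setting of the counting is not given in the sources used here. Abhd12 ran from 172 to 894 CPM in sperm (median 649) and from 118 to 146 CPM (median 133) in male brain. The groups did not overlap, and sperm was higher than the brain of the same rat in 15 of 15. The difference was 2.17 ± 0.17 (SE) log2 (edgeR, adjusted p = 7.35e-13), 4.50-fold.

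The receptor gene Cnr1 (chromosome 5 from 53204867 to 53230396, overlapping LOC120102853 and LOC120103344) was almost absent from rat sperm. It ran from 0 to 1.64 CPM there (median 0.0698), from 0 to 100 counts per library, and from 130 to 204 CPM in male brain. The difference was -9.43 ± 0.65 (SE) log2 (edgeR, adjusted p = 2.27e-14), lower in 15 of 15 rats. The size of this difference depends on the fit by more than its SE, being -5.04 by DESeq2 and -10.62 with the rat as a block, and it was called in both. The 2 highest sperm values, 1.64 and 0.80 CPM, were in rats 14 and 7. Cnr2 (chromosome 5 from 153408968 to 153435092) did not pass the test: it ran from 0 to 1.99 CPM in sperm and from 0.485 to 1.58 CPM in male brain (-0.09 ± 0.46; edgeR, adjusted p = 0.864). Rats 16 and 17, with few low counts, had 0 Cnr2 counts. In rat sperm the neutrophil list summed to between 2.47 and 35.3 CPM and the lymphocyte list to between 5.03 and 73.5 CPM, against 5.47 to 11.7 and 0.795 to 2.01 CPM in male brain.

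Faah (chromosome 5 from 134716545 to 134735396) ran from 5.12 to 31.6 CPM in rat sperm (median 19.6) and from 46.1 to 63.0 CPM in male brain, without overlap (-1.45 ± 0.16 (SE) log2; edgeR, adjusted p = 1.46e-09). Napepld (chromosome 4 from 14251591 to 14291010) ran from 4.09 to 23.8 CPM in sperm (median 7.56) and from 13.2 to 23.4 CPM in brain (-1.03 ± 0.21; edgeR, adjusted p = 7.53e-05), and it was higher in sperm in 2 of 15 rats. With TMM factors from the fitted libraries alone the Napepld difference was -0.94 and fell under the fold minimum. Dagla (chromosome 1 from 216315515 to 216372219) ran from 4.74 to 77.5 CPM in sperm and from 54.1 to 86.6 CPM in brain (-1.12 ± 0.28; edgeR, adjusted p = 0.000724), so the sperm libraries spread widely and overlapped brain.

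**Figure D4:**
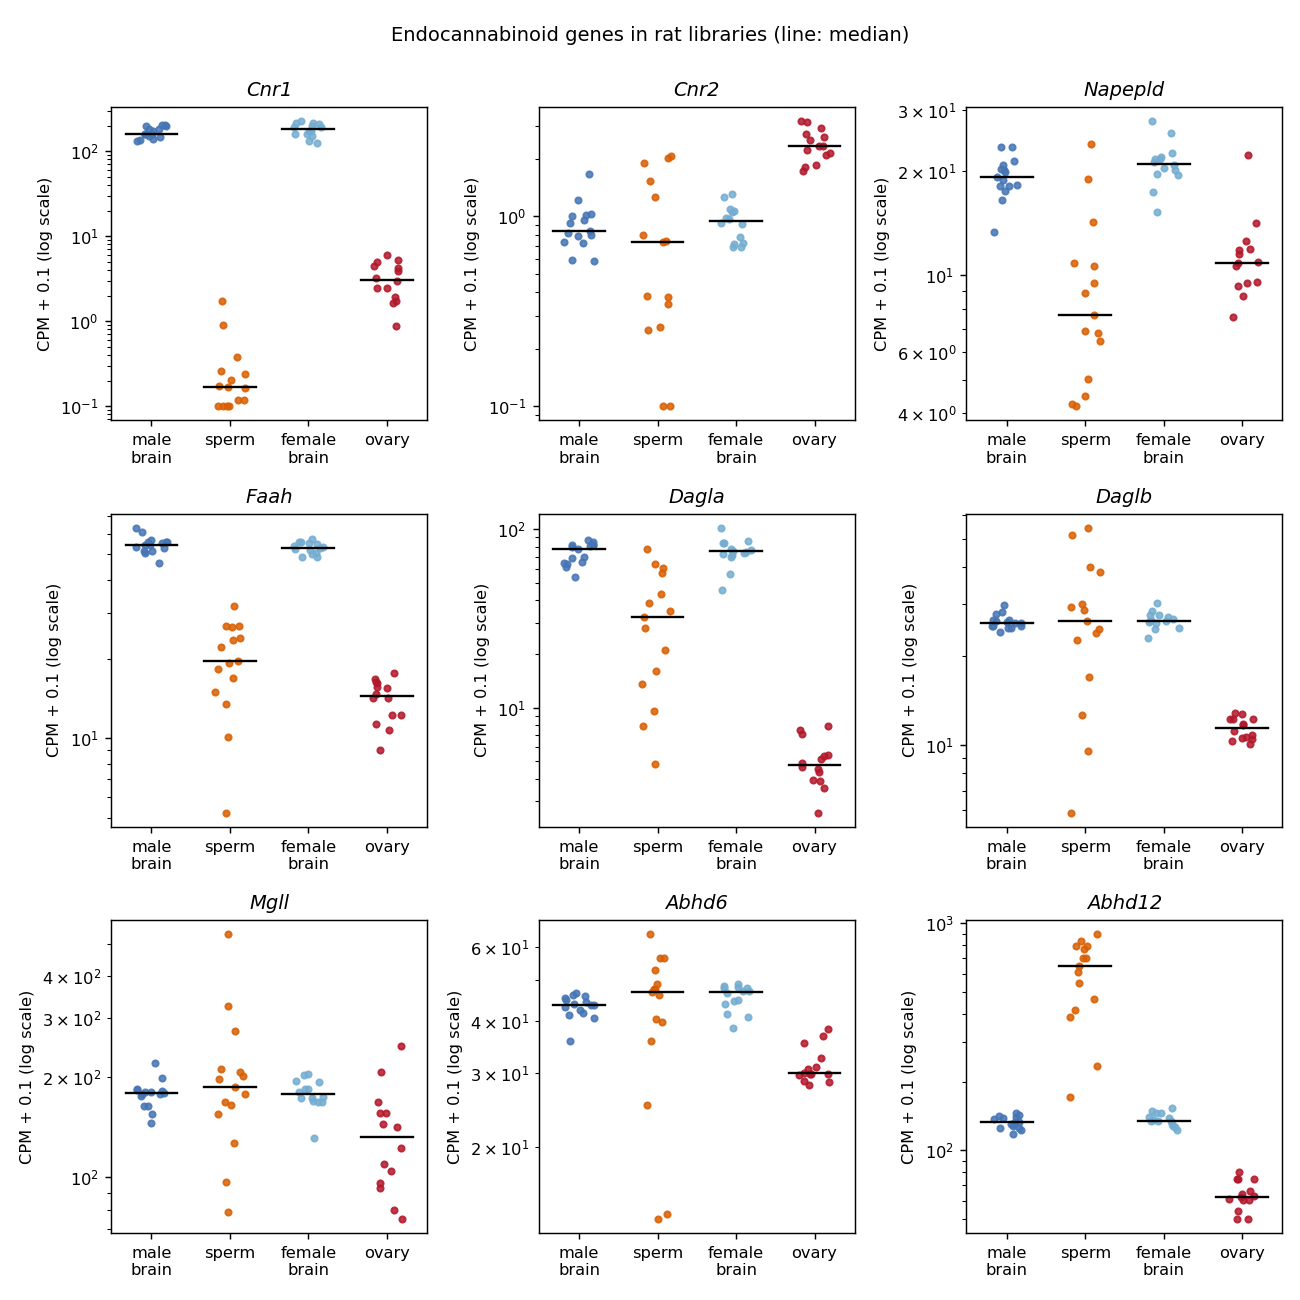
Level of the 9 genes (CPM + 0.1, log axis) in rat male brain (n = 15), sperm (n = 15), female brain (n = 14) and ovary (n = 14); points are libraries and lines medians. Abhd12 is above brain in sperm and below it in ovary, Cnr1 is far below brain in both, and sperm libraries spread more widely than the other groups.

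The other 3 enzymes did not pass the test in rat sperm. Daglb (chromosome 12 from 16173345 to 16215777) ran from 5.79 to 54.3 CPM in sperm and from 24.0 to 29.6 CPM in male brain (0.08 ± 0.21 (SE) log2; edgeR, adjusted p = 0.734). Mgll (chromosome 4 from 122749436 to 122851440, with Trnav-aac19 inside its span) ran from 78.6 to 534 CPM in sperm and from 145 to 221 CPM in brain (0.22 ± 0.18; edgeR, adjusted p = 0.259). Abhd6 (chromosome 15 from 19289967 to 19337500) ran from 13.4 to 64.3 CPM in sperm and from 35.7 to 46.6 CPM in brain (-0.03 ± 0.16; edgeR, adjusted p = 0.864). For these genes the sperm libraries lay on both sides of brain.

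Rat sperm libraries also differed in their germ-cell markers. Rats 14, 7 and 3 had the highest late spermatid lists, 10.60, 10.08 and 8.79 as means of log2(CPM + 1), against 3.14 to 7.48 in the other 12. In these 3 rats Abhd12 was 172, 234 and 414 CPM, Abhd6 13.4, 13.8 and 25.2 CPM, and Mgll 534, 326 and 275 CPM. They held the 3 highest Mgll values and the 3 lowest Abhd6 values. Over the 15 libraries, the log-scale level of ABHD12 against the list had Pearson's r = -0.831 (permutation p = 0.00043, adjusted 0.00405) and Spearman's rho = -0.682 (permutation p = 0.0063, adjusted 0.113), and r was -0.536 without the 2 libraries farthest from the median of the list. For ABHD6, r was -0.841 (permutation p = 0.00045, adjusted 0.00405), rho -0.536 (permutation p = 0.0428, adjusted 0.151) and r without the 2 farthest libraries -0.543. For MGLL, r was 0.676 (permutation p = 0.00537, adjusted 0.0193) and rho 0.539 (permutation p = 0.0406, adjusted 0.151), and r fell to 0.287 without the 2 farthest, so that relation rests on those libraries. The same held for 4 further members. CNR1 had r = 0.757 (permutation p = 0.00206, adjusted 0.0124) and 0.211 without the 2 farthest, and CNR2 r = 0.655 (permutation p = 0.00859, adjusted 0.0221) and 0.387. DAGLA had r = -0.653 (permutation p = 0.00851, adjusted 0.0221) and -0.292 without them, and DAGLB r = -0.703 (permutation p = 0.00371, adjusted 0.0167) and -0.282. Their rho values were 0.532, 0.518, -0.411 and -0.575 (permutation p = 0.0449, 0.0504, 0.129 and 0.0271, adjusted 0.151, 0.151, 0.291 and 0.151). FAAH and NAPEPLD did not pass the adjusted threshold (r = -0.164 and 0.329). Adjustment was over 18 relations, 9 genes with each of 2 marker lists (the other was of epididymis and vas deferens), and no rho passed it. With the epididymis and vas deferens list, r ran from -0.23 (DAGLB) to 0.22 (FAAH), and the adjusted permutation p was 0.728 or more for all 9 genes.

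Rat ovary was compared with the brains of the females. Of the 9 members 6 were called, against 57.4% of all 21150 genes: 5 lower (30.3% of all genes) and 1 higher (27.1%). The median difference was -1.10 over the members and -0.02 over all genes. The member that was higher was Cnr2. It ran from 1.63 to 3.07 CPM in ovary (median 2.26) and from 0.586 to 1.22 CPM in female brain (median 0.847), without overlap, higher in 14 of 14 rats. The difference was 1.48 ± 0.13 (SE) log2 (edgeR, adjusted p = 6.40e-12), 2.78-fold. Lymphocyte genes were also higher in ovary, at a summed 17.7 to 52.6 CPM against a median of 1.01 CPM in female brain, mostly from CD79A (27.5 CPM ± 11.1, SD, n = 14). The microglial list summed to between 108 and 251 CPM in ovary and between 140 and 215 CPM in female brain. The part of these markers in the Cnr2 result was not tested.

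Cnr1 ran from 0.781 to 5.89 CPM in ovary (median 2.98) and from 125 to 224 CPM in female brain (-5.81 ± 0.24 (SE) log2; edgeR, adjusted p = 3.80e-20), lower in 14 of 14 rats. Dagla ran from 2.48 to 7.81 CPM and from 45.8 to 102 CPM (-3.91 ± 0.15; edgeR, adjusted p = 2.46e-21). Faah ran from 8.93 to 17.5 CPM and from 48.9 to 56.8 CPM (-1.92 ± 0.08; edgeR, adjusted p = 2.42e-20). Daglb ran from 9.99 to 12.7 CPM and from 22.9 to 30.2 CPM (-1.22 ± 0.05; edgeR, adjusted p = 9.48e-21), and Abhd12 from 49.6 to 80.1 CPM and from 123 to 154 CPM (-1.10 ± 0.06; edgeR, adjusted p = 2.68e-16). For all 5 the ovary libraries lay entirely below the brain libraries.

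The other 3 enzymes differed in ovary by less than the fold minimum. Napepld had a median of 10.8 CPM in ovary and 20.9 CPM in female brain (-0.88 ± 0.12 (SE) log2; edgeR, adjusted p = 3.11e-08), and with DESeq2-type size factors the difference was -1.08 and was called. Abhd6 ran from 28.1 to 38.2 CPM in ovary, just below the 38.5 to 48.9 CPM of brain (-0.54 ± 0.05; edgeR, adjusted p = 2.89e-11). Mgll ran from 74.9 to 248 CPM in ovary, against 131 to 204 CPM in brain (-0.40 ± 0.14; edgeR, adjusted p = 0.00835), and it was higher than in the same rat's brain in 3 of 14.

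Between male and female rat brain no member was called, against 0.179% of all genes, 0 had an unadjusted p below 0.05 and DESeq2 called 0. The differences lay between -0.14 ± 0.07 (SE) log2 for NAPEPLD and 0.04 ± 0.04 for FAAH (edgeR, adjusted p = 0.552 and 0.782). Male and female values overlapped for all 9.

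Pairs of enzymes with related roles were then compared by the ratio of their counts within each library, with 9 tests over 3 pairs and 3 tissue comparisons. The log2 ratio of DAGLA to DAGLB was lower outside the brain in each comparison. It was -2.33 ± 3.06 (SD, n = 5) in sheep sperm against 1.42 ± 0.16 (SD, n = 5) in the brain of the same sheep, the mean of 10 regions (exact permutation test, two-sided, p = 0.00794, adjusted 0.00893). The sperm of sheep 687 had no DAGLA counts, so its ratio, the lowest at -6.11, depends on the 0.5 added to each count. Sheep 694 had the high DAGLB value (52.8 CPM). In rat sperm it was 0.12 ± 1.26 (SD, n = 15) against 1.48 ± 0.19 (SD, n = 15), a permutation p of 0.00032 (adjusted 0.00048), and the groups overlapped. In rat ovary it was -1.25 ± 0.41 (SD, n = 14) against 1.48 ± 0.21 (SD, n = 14), without overlap (permutation p = 2e-05, the smallest that 100000 resamples can give, adjusted 3.6e-05).

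The log2 ratio of MGLL to FAAH was higher outside the brain. It was 4.10 ± 2.97 (SD, n = 5) in sheep sperm against 1.07 ± 0.30 (SD, n = 5) in brain (exact permutation p = 0.0397, adjusted 0.0397), with overlap. The sperm of sheep 688 had no FAAH counts, so its ratio, the highest at 8.68, depends on the 0.5 added to each count. Without sheep 687, 688, 690 or 694 this p was above 0.05 (adjusted 0.143, 0.114, 0.114 and 0.114). In rat sperm the ratio was 3.35 ± 0.77 (SD, n = 15) against 1.70 ± 0.20, and in rat ovary 3.22 ± 0.67 (SD, n = 14) against 1.75 ± 0.17 (permutation p = 2e-05, adjusted 3.6e-05, in each), without overlap.

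The log2 ratio of ABHD12 to ABHD6 went in different directions. It was 5.63 ± 1.43 (SD, n = 5) in sheep sperm against 2.02 ± 0.08 (SD, n = 5) in brain (exact permutation p = 0.00794, adjusted 0.00893). It was 3.81 ± 0.41 (SD, n = 15) in rat sperm against 1.62 ± 0.13 in male brain, but 1.02 ± 0.22 (SD, n = 14) in ovary against 1.59 ± 0.14 in female brain (permutation p = 2e-05, adjusted 3.6e-05, in each). None of these 3 comparisons overlapped. With the sheep as a block (sign-flip permutation), the 3 sheep differences had adjusted p of 0.0703, 0.125 and 0.0703 in the order of the pairs given here, since 5 sheep cannot give a raw p below 0.0625.

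**Figure D5:**
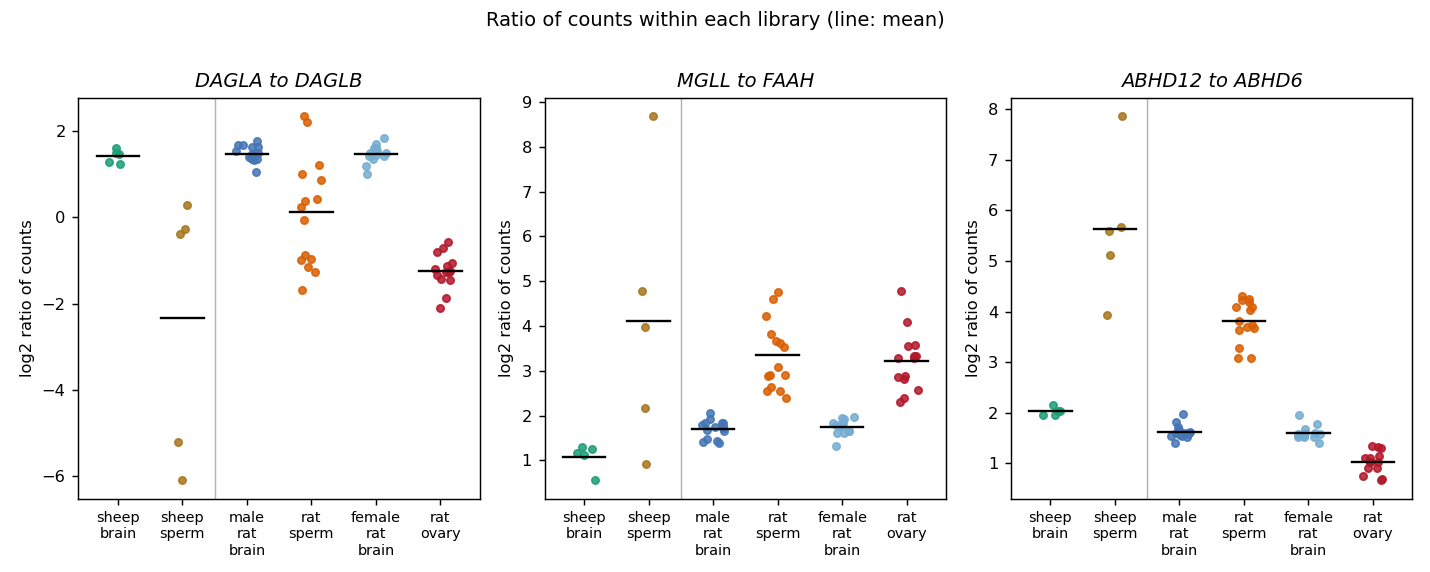
Log2 ratio of the counts of 2 genes within each library, for DAGLA to DAGLB, MGLL to FAAH and ABHD12 to ABHD6, in sheep brain (mean of 10 regions per sheep), sheep sperm and the 4 rat groups; points are animals and lines means. Rat ovary and rat sperm part for ABHD12 to ABHD6 (means 1.02 and 3.81), while both lie above brain for MGLL to FAAH.

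A list of 41 further genes of the pathway was read beside the members, of which 40 were in each table (FAAH2 was in neither). In rat ovary 10 of the 39 tested were called higher and 18 lower (27.1% and 30.3% of all genes), so the higher count lies near the background, with a median of -0.05 log2 against -0.02 over all genes. PPARG, a nuclear receptor, stood at 21.9 CPM ± 7.39 (SD, n = 14) in ovary and 0.341 CPM in female brain (6.09 ± 0.21, SE), and GPR55, a receptor for lysophospholipids, at 5.96 CPM ± 6.63 (SD, n = 14) and 0.429 CPM (3.88 ± 0.37). Among CB1 partners and signalling genes 9 of 11 were lower (30.3% of all genes), such as the potassium channel gene KCNJ6, with 12 counts over 14 ovaries and 83.1 CPM ± 18.0 (SD, n = 14) in female brain. GRM5, the glutamate receptor that drives 2-AG synthesis, had 4 counts over the 14 ovaries and 109 CPM ± 22.5 (SD, n = 14) in brain.

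In rat sperm 11 of the 39 were called higher (25.6% of all genes) and 18 lower (33.8%), so the higher count lies near the background. The list's median was -0.65, against -0.17 over all genes. All 4 tested genes of other degradation routes were higher, led by PTGS2, the inducible cyclooxygenase, at 2765 CPM ± 1834 (SD, n = 15) against 13.5 CPM ± 3.31 in male brain (7.68 ± 0.44, SE). PLAAT5, an acyltransferase that makes anandamide precursors, averaged 172 CPM ± 340 (SD, n = 15) against 0.154 CPM (10.15 ± 1.12), with an SD larger than its mean. It was the lowest of the 8 anandamide synthesis genes in brain, and only 7 of these passed the low-count filter among brain libraries alone. PLAAT5 was thus tested here only because of the sperm libraries. Its call, 1 of the 11, is no separate support for the difference. FABP7, a brain fatty acid carrier, was lower, at 0.0322 CPM against 74.6 CPM.

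In sheep sperm 11 of 38 were called higher (32.6% of all genes) and 19 lower (42.4%), both counts near the background. The list's median was -1.32, or -1.12 with genes at 0 counts set to their bound, against -0.51 over all genes. Of 8 anandamide synthesis genes 5 were higher and 1 lower, among them PLAAT5 at 28.9 CPM ± 33.6 (SD, n = 5) against 0.118 CPM (8.02 ± 0.31, SE). GPR18, a receptor for N-arachidonoyl glycine that is known from leukocytes, stood at 52.1 CPM ± 53.4 (SD, n = 5) against 0.0822 CPM. None of the 11 CB1 partners and signalling genes was higher and 8 were lower. CNRIP1, whose protein binds the tail of CB1, had 0 counts in all 5 sperm libraries and 22.2 CPM in brain, at least 332-fold lower in sperm with a floor of 3 counts over the group.

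Within the sheep brain, 11 of 38 listed genes were called higher in the cerebellum (30.0% of all genes) and 9 lower (30.8%), which lies near or below the background. One of the higher genes was PLA2G4E, a calcium-dependent N-acyltransferase, at 6.77 CPM ± 4.27 (SD, n = 5) against 0.346 CPM (4.71 ± 0.41, SE). In the basal ganglia 3 were higher (13.9% of all genes) and 8 lower (13.6%), with GRM5 at 122 CPM ± 19.9 (SD, n = 5) against 82.2 CPM (0.69 ± 0.15) and KCNJ6 at 3.38 CPM ± 1.66 against 50.6 CPM (-3.77 ± 0.32). In the pons 10 were higher (23.8% of all genes) and 15 lower (24.3%): PLAAT3 stood at 79.8 CPM ± 18.7 (SD, n = 5) against 28.7 CPM (1.49 ± 0.13) and PLCB1, a phospholipase that supplies diacylglycerol, at 36.7 CPM ± 11.0 against 162 CPM (-2.09 ± 0.24). Between the sexes of rat none of 39 was called in brain (0.179% of all genes).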

How the data were processed

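Gene-level read counts of 55 sheep and 58 rat libraries were used as the authors deposited them. They came as 1 table per sheep and 1 per rat tissue, and were joined into 1 table per species. Per the series' design text, RNA was extracted with TRIzol (sheep) or a Zymo kit (rat), made into stranded mRNA libraries and read as 150-base pairs. The same text names Trimmomatic v0.39 for trimming, STAR v2.7.5a for alignment (sheep to ARS-UI_Ramb_v3.0, rat to GRCr8) and, for counting, the Rsubread package v2.20.0. Whether counting used strand, and how multiply aligned reads were treated, is not stated there.

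The counts were tested with edgeR 4.0.16 (quasi-likelihood test, R 4.3.3), with TMM factors over all libraries of a species, the filterByExpr filter and Benjamini-Hochberg adjustment over all genes tested. Alternatives were DESeq2 1.42.0, DESeq2-type size factors in edgeR, TMM factors from the fitted libraries, no filter, another fold rule, an animal block and leaving out each sheep. Added after seeing the data were fits without rat sperm libraries 7, 16 and 17 and without rat brain libraries 1 and 4. The SE of an edgeR difference was calculated back as the absolute log2 difference divided by the square root of the test's F statistic, since edgeR reports none. For genes near 0 counts in a group it does not cover how the difference depends on the fit. Count ratios, with 0.5 added to each count, were tested by permutation (scipy 1.17.1). The edgeR test, but not DESeq2 or the ratio tests, was run on simulated counts for some of the comparisons. There few genes were changed and all groups had the same spread. That run therefore cannot check the p-values of the sperm comparisons. With 15 or fewer animals a group, edgeR p-values reflect the spread among the libraries of a fit, 1 estimate per gene shared by its groups. In the sheep sperm fit that estimate comes mostly from brain. In the regional fits the 10 pieces of a sheep counted as separate libraries, except with the sheep as a block. The ratio tests used 1 value per animal and tissue.

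The 9 members and the lists were chosen with earlier results of these data known. All members are described, plus, from the pathway list, the 2 called genes with the largest difference in each direction among those reaching 5 CPM in either group (a selection of them is printed), and the 3 genes most like each member in sheep brain, or the first of them. Sheep numbers name the animals: the median correlation of same-sheep deviations was 0.176 between regions, against -0.04 for other sheep. Over pairs of regions the same-sheep median ran from -0.24 to 0.48. Between a region and sperm it was only 0.04, against -0.01 for other sheep. Deviations were taken from the group mean, which pulls the values for other sheep downwards. Rat numbers were taken as the animal.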

Additional observations from a re-analysis of the deposited data

Results flagged for a closer look

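In each group of 5 sheep the highest or lowest library was compared with the next. Of 99 such groups 11 held a value far from the others. A chance rate of about 1 in 20 assumes independent, normally spread values. The groups share the same 5 sheep and CNR2 had very few counts in brain, so that rate may not hold here. In the brain these were CNR2 in the prefrontal cortex of sheep 690 (0.0877 CPM, against 0 to 0.0125 in the others), FAAH in the visual cortex of sheep 687 (41.9 CPM, against 20.8 to 22.7) and DAGLA in the cerebellum of sheep 687 (52.4 CPM, against 30.1 to 35.8). DAGLB in the basal ganglia of sheep 699 stood at 18.3 CPM (others 11.8 to 13.1), MGLL in the prefrontal cortex of sheep 688 at 106.6 CPM (others 70.4 to 78.7) and MGLL in the posterior parietal cortex of sheep 687 at 62.7 CPM (others 96.7 to 109.7). ABHD12 was far from the others in the entorhinal cortex of sheep 688 (122.8 CPM, others 50.8 to 68.2), in the motor cortex of sheep 687 (80.5 CPM, others 114.2 to 122.2) and in the visual cortex of sheep 687 (143.2 CPM, others 75.1 to 90.3).

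In sheep sperm, DAGLB of sheep 694 (52.8 CPM, others 3.70 to 11.8) and ABHD12 of sheep 688 (343.5 CPM, others 31.1 to 98.9) stood apart. Sheep 694 decides the direction of DAGLB, which was -1.10 log2 without it.

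Abhd12 moved in opposite directions in the reproductive samples of male and female rats. On the log2(CPM + 1) scale it was higher than in the same animal's brain in 15 of 15 sperm samples (mean 2.03) and in 0 of 14 ovaries (mean -1.10), and these means differ by 3.13. The difference between them was not tested.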

How the results depend on the processing

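Over single members, 1123 of 1177 values under an alternative kept their side of the threshold, 45 lost the call, 8 gained one and 1 reversed. Of the 1123, 59 changed sign without being called under either setting, among them ABHD12 in sheep sperm (0.54, and -0.29 without 688). The counts of members called in the rat comparisons and in sheep sperm stayed within 1.5 times under the alternatives run. With DESeq2-type size factors the cerebellar count was 3. With a log2 fold minimum of 1, the count was 2 in the basal ganglia, 1 in the cerebellum and 0 in the frontal, posterior parietal and visual cortex. Without the low-count filter the visual cortex had 1.

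Leaving out 1 sheep gave 3 (without 694) to 5 in the cerebellum, 0 (without 687, 690 or 694) to 1 in the frontal cortex, 0 to 1 in the hippocampus (1 without 699) and motor cortex (1 without 687), 0 (without 694) to 2 in the posterior parietal cortex, and 0 (without 687, 688 or 690) to 2 in the visual cortex. DAGLB in sheep sperm ran from -1.10 (without 694) to 0.51 (without 699), and the sheep difference in MGLL to FAAH from 1.94 to 3.87. The cause was not tested.

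With the sheep as a block the frontal count was 2 and the sheep ratio differences of -3.76, 3.03 and 3.61 lost their calls; the block changed no other member call. In rats, same-number correlations had a median of 0.074 for brain and sperm, against -0.005 for other numbers. For brain and ovary the median was 0.010, against 0.0002, so the numbers showed almost no pairing there. The lowest values were -0.10 (brain and sperm) and -0.20 (brain and ovary), and 3 of 15 and 3 of 14 animals correlated best with their own number.

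Over all genes, no filter gave 18803 calls in ovary (12131) and 22093 in rat sperm (12209), where DESeq2 gave 18427, and dropping the fold minimum gave 18747 in ovary. The sex comparison gave 157 by DESeq2, 64 without brain libraries 1 and 4 and 12 with a fold minimum (37). With a fold minimum the regions gave 2179 (BG, 5817), 6081 (CB, 12861), 3924 (pons, 10159), 601 (FC, 1696), 969 (HC, 2302), 353 (MC, 748), 522 (PC, 1325), 556 (PPC, 2164) and 452 (VC, 1201). Leaving out 1 sheep gave as few as 313 in EC (680), 664 in FC, 1084 in HC, 317 in MC, 648 in PC, 867 in PPC and 468 in VC. The higher share of calls moved from 43.1% to 56.7% in rat sperm without the filter. DESeq2 moved it from 54.1% to 67.5% for sex, 77.1% to 62.3% in FC, 83.7% to 71.7% in MC and 83.0% to 70.1% in VC, and the lower share from 56.5% to 45.0% in sheep sperm and 31.7% to 45.0% in PC.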
